A study of Rattus norvegicus with 20 samples.

Results

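Liver gene expression was compared between rats fed a ligand of the aryl hydrocarbon receptor and rats fed a potent activator of the transcription factor Nrf2. The comparison was set by diet alone, from the labels: the 5 arrays of the BNF rats against the 5 arrays of the D3T rats, 10 of the 20 arrays of the study. The BNF rats ate 5,6-benzoflavone at 1650 mg per kg of diet. The D3T rats ate 3H-1,2-dithiole-3-thione at 600 mg per kg of diet. The control rats ate the same rodent diet with nothing added, and are used here to show which of the 2 diets departed from it. A further group was fed OLT (oltipraz, a substituted dithiolethione) at 500 mg per kg of diet. It entered only the filter, the choice of probe sets, the estimate of the spread and the description of single arrays. Each diet was given for 24 days to 5 female Sprague Dawley rats, each measured on 1 one-colour Affymetrix array of total liver RNA. The amounts of BNF and D3T in the diets differ, so the comparison is of 2 diets and not of equal doses. Values are log2 intensities made by the authors with GCRMA, and a difference is the BNF mean minus the D3T mean, so that a positive one means higher in BNF.

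The aryl hydrocarbon receptor (AhR) is a ligand-activated transcription factor that sits in the cytosol with the chaperone Hsp90. It moves to the nucleus on binding planar aromatic compounds, pairs with Arnt and activates genes that carry xenobiotic response elements, above all the Cyp1 family of P450 enzymes. Nrf2, encoded by Nfe2l2, is held in the cytosol by Keap1 and degraded until electrophiles modify Keap1. It then pairs with small Maf proteins on antioxidant response elements and activates genes of glutathione conjugation, carbonyl reduction, quinone reduction and NADPH supply. Both pathways are strong in liver, and some genes, Nqo1 among them, are known to answer to both.

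A total of 12947 probe sets passed the filter (log2 value above 4 in at least 5 of the 20 arrays), and they name 7837 genes. A gene is written as called where limma's Benjamini-Hochberg adjusted p was under 0.05 over all kept probe sets. Of the probe sets 1935 were called (14.9%), 808 higher in BNF (6.24%) and 1127 lower (8.70%). Of the genes 1376 were called (17.6%), 531 higher in BNF (6.78%) and 845 lower (10.8%), with 443 at 2-fold or more (5.65%), of which 243 lay higher in BNF (3.10%) and 200 lay lower (2.55%). The groups did not overlap in 1172 genes (15.0%), and 953 were both called and not overlapping (12.2%). Against control, by the same rule, 327 genes were called in BNF (4.17%) and 1023 in D3T (13.1%). These comparisons share arrays with the main one. Counts for gene lists below are to be read beside the shares over all genes, 6.78% higher in BNF and 10.8% lower.

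Arrays that stand apart need to be named before the results. The array labelled D3T 5 correlated more closely with the OLT arrays (mean r = 0.979) than with its own group (mean r = 0.968). Whether its label is right was not tested, and every D3T mean over 5 arrays includes it. In the OLT group OLT 1 correlated more closely with the D3T arrays (mean r = 0.966, against 0.963 with its own group) and OLT 5 with the BNF arrays (0.968, against 0.965). Without D3T 5 and OLT 1 together 1391 genes were called, 581 higher in BNF and 810 lower. Among the 469 called genes with a difference of 2-fold or more without it (5.98%), it lay outside the range of the other D3T arrays in 281 (59.9%), and on the side of BNF in 251 (53.5%). Such a choice of genes can by itself place an omitted array toward BNF, and with each of the other D3T arrays omitted in the same way the share on the side of BNF was 36.0% for D3T 1, 15.5% for D3T 2, 9.26% for D3T 3 and 20.1% for D3T 4. Without D3T 5 1285 genes were called (16.4%), 513 higher in BNF (6.55%) and 772 lower (9.85%), and 1161 genes were called the same way with and without it. Leaving out D3T 3 gave the lowest probe set count, 1344, and leaving out D3T 1 the highest, 2180. Where D3T 5 lay apart from the other D3T arrays, the difference is also given without it. The median difference over all genes was -0.03, and -0.02 without D3T 5. In whole liver RNA, fewer cells of a type and less RNA per cell cannot be told apart. Hepatocyte markers were high in every array: albumin (Alb) averaged 16.14 ± 0.08 in BNF and 16.30 ± 0.10 in D3T (SD, n = 5 each), a difference of -0.16 that was not called (adjusted p = 0.224).

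**Figure D1:**
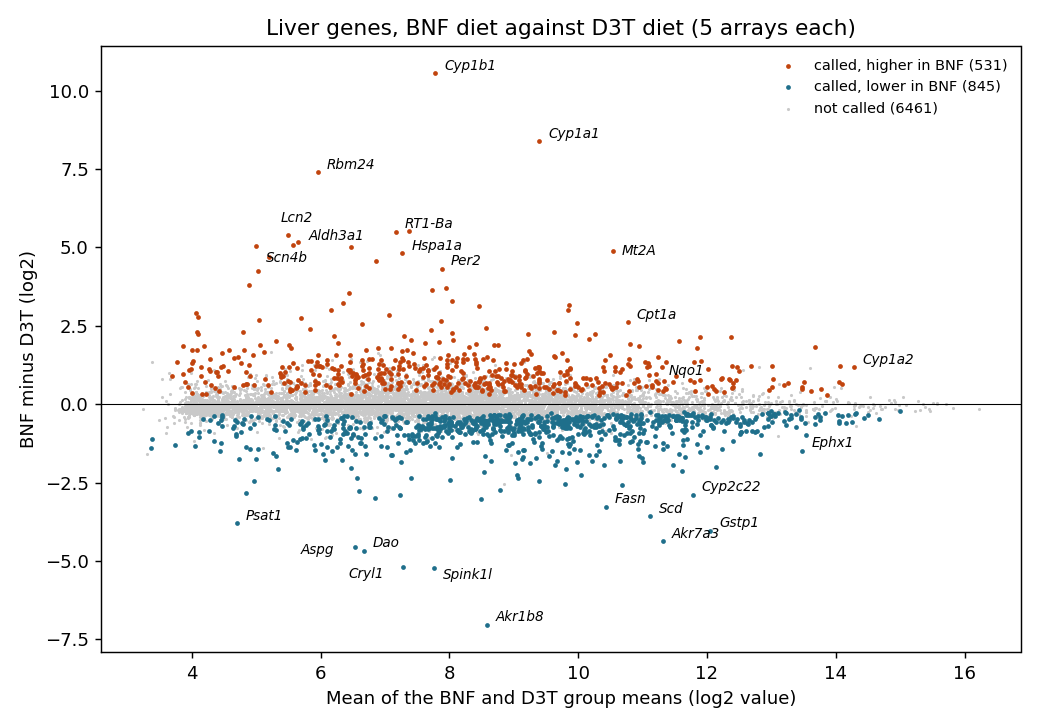
Difference between diets (BNF minus D3T, log2, vertical axis) against the mean of both group means (log2 value, horizontal axis) for 7837 genes; orange genes were called higher in BNF, blue ones lower and grey ones were not called. Cyp1b1 at 10.55 and Akr1b8 at -7.03 are the extremes that are named.

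The Cyp1 P450s and Aldh3a1 were higher in BNF, and Cyp1b1 had the largest difference. Of 9 measured genes known as, or treated here as, AhR targets, 8 were called higher and none lower, with a median difference of 2.25 (2.30 without D3T 5). The list was chosen with earlier results of these data known, so its count is a description. Cyp1b1, an AhR-inducible P450 that oxidizes estrogens and polycyclic hydrocarbons, had log2 values of 13.19, 13.45, 12.88, 12.79 and 12.95 in BNF and 2.49, 2.55, 2.53, 2.50 and 2.47 in D3T. The 5 BNF arrays lay high in the range of the array, and the D3T arrays lay at the background level that GCRMA leaves, as did control (2.48 ± 0.03, SD, n = 5). The difference was 10.55 ± 0.11 (SE, limma adjusted p = 6.91e-23) and 10.54 without D3T 5. Because the D3T mean is background, the size of this difference depends on how the background was set.

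The upstream sequence of Cyp1b1 is shown because it carries both a known regulator's core motif and the largest difference. It is the RefSeq promoter window, cut to the 250 bases before the annotated start, on GRCr8 at chr6:21094315-21094564, plus strand, 5′ to 3′, with matches to GCGTG, the core of the xenobiotic response element, in capitals. Read on the other strand the core appears as CACGC. Rbm24, the gene with the next largest difference whose window was listed, is set beside it, at chr17:18493629-18493878, minus strand.
Cyp1b1: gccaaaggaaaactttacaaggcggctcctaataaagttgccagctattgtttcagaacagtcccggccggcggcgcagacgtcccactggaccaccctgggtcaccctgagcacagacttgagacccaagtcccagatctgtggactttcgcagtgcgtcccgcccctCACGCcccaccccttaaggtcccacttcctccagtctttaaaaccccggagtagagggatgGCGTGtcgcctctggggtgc
Rbm24: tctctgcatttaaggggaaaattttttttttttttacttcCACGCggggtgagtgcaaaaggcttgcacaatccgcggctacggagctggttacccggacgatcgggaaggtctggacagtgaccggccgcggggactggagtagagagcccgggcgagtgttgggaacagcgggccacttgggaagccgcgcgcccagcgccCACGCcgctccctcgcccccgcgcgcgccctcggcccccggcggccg
The Cyp1b1 window held the core at base -20 before the start and its reverse at base -81. The Rbm24 window held the reverse at bases -210 and -47. Such a match is common: GCGTG, on either strand, was in 29.7% of all 33469 rat promoter windows and in 49.7% of the 7240 windows of tested genes. It was in 44.1% of the 463 windows of genes higher in BNF and in 51.4% of the 774 windows of genes lower in BNF.

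Cyp1a1, the textbook AhR target that oxidizes polycyclic hydrocarbons, had values of 13.50, 13.77, 13.55, 13.50 and 13.62 in BNF and 5.76, 4.00, 3.98, 3.97 and 8.31 in D3T. The BNF arrays lay within 1 narrow band, and D3T 5 was the highest of a scattered D3T group, with control at a similar mean (5.26 ± 1.07). The difference was 8.39 ± 1.01 (adjusted p = 1.70e-05; 9.16 without D3T 5). Cyp1a2, the constitutive hepatic member that metabolizes caffeine, had values of 14.72, 15.20, 14.75, 14.78 and 14.91 in BNF and 13.59, 13.49, 13.42, 13.44 and 14.51 in D3T. It was already near the top of the range in control (13.88 ± 0.21), and D3T 5 was again the highest D3T array, below all BNF arrays. Its difference was 1.18 ± 0.18 (adjusted p = 0.000232) and 1.39 without D3T 5. Aldh3a1, an aldehyde dehydrogenase that AhR ligands are known to switch on in rat liver, had values of 9.50, 8.99, 7.28, 7.85 and 7.58 in BNF and 2.97, 3.24, 3.15, 2.97 and 2.96 in D3T. D3T and control (2.98 ± 0.03) were at background, and the difference was 5.18 ± 0.29 (adjusted p = 4.42e-10). The diets share an estimate of the spread, so groups at background, which hardly vary, make the SE and p-value small. Over all settings the limma adjusted p reached at most 0.000128 for Aldh3a1 and 3.49e-10 for Cyp1b1.

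The other called members differed less than Cyp1b1, Cyp1a1 and Aldh3a1. Exoc3, a subunit of the exocyst complex of vesicle tethering, averaged 10.34 ± 0.25 in BNF and 8.10 ± 0.25 in D3T (difference 2.25, adjusted p = 1.25e-08), and all 3 of its probe sets were called higher. Lcat, the plasma enzyme that esterifies cholesterol, averaged 13.60 ± 0.12 in BNF and 12.92 ± 0.26 in D3T (difference 0.68, adjusted p = 0.00148), with BNF at the control level. Nfe2l2, which encodes Nrf2 itself and is known as an AhR target, had values of 12.96, 12.49, 12.25, 12.74 and 12.45 in BNF and 10.84, 9.93, 10.31, 10.84 and 10.84 in D3T. The groups did not overlap, and the difference was 2.02 ± 0.22 (adjusted p = 7.14e-06; 2.10 without D3T 5). It was 0.91 against control in BNF (adjusted p = 0.0266) and -1.11 in D3T (adjusted p = 0.00306), so both diets departed from control, in opposite directions. Tiparp, an ADP-ribosyltransferase that restrains the AhR, averaged 8.90 ± 0.70 in BNF and 6.53 ± 1.21 in D3T (difference 2.37, adjusted p = 0.0276). That call was lost without BNF 1, BNF 3, D3T 3 or D3T 4 and with no filter on low values, where the highest adjusted p over all settings was 0.0743. The other kept probe set of Tiparp was also called higher (difference 1.24, adjusted p = 0.00754). Ahr itself averaged 8.13 ± 0.55 in BNF and 6.90 ± 1.09 in D3T and was not called (difference 1.24, 95% interval 0.10 to 2.38, adjusted p = 0.141).

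Nqo1, the quinone reductase known to be induced through both the AhR and Nrf2, was the 1 listed AhR target that was not called. Its values were 11.52, 12.14, 11.37, 11.42 and 11.87 in BNF and 11.51, 10.98, 10.96, 11.003 and 9.84 in D3T, with 8.45 ± 0.60 in control. Both diets lay above every control array, by 3.22 in BNF (adjusted p = 4.36e-05) and 2.41 in D3T (adjusted p = 0.00039). The difference between the diets was 0.81 (95% interval 0.02 to 1.59, adjusted p = 0.168) and 0.55 without D3T 5. The interval reaches above the Cyp1a2 difference, so these data do not show that the diets act alike on Nqo1.

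**Figure D2:**
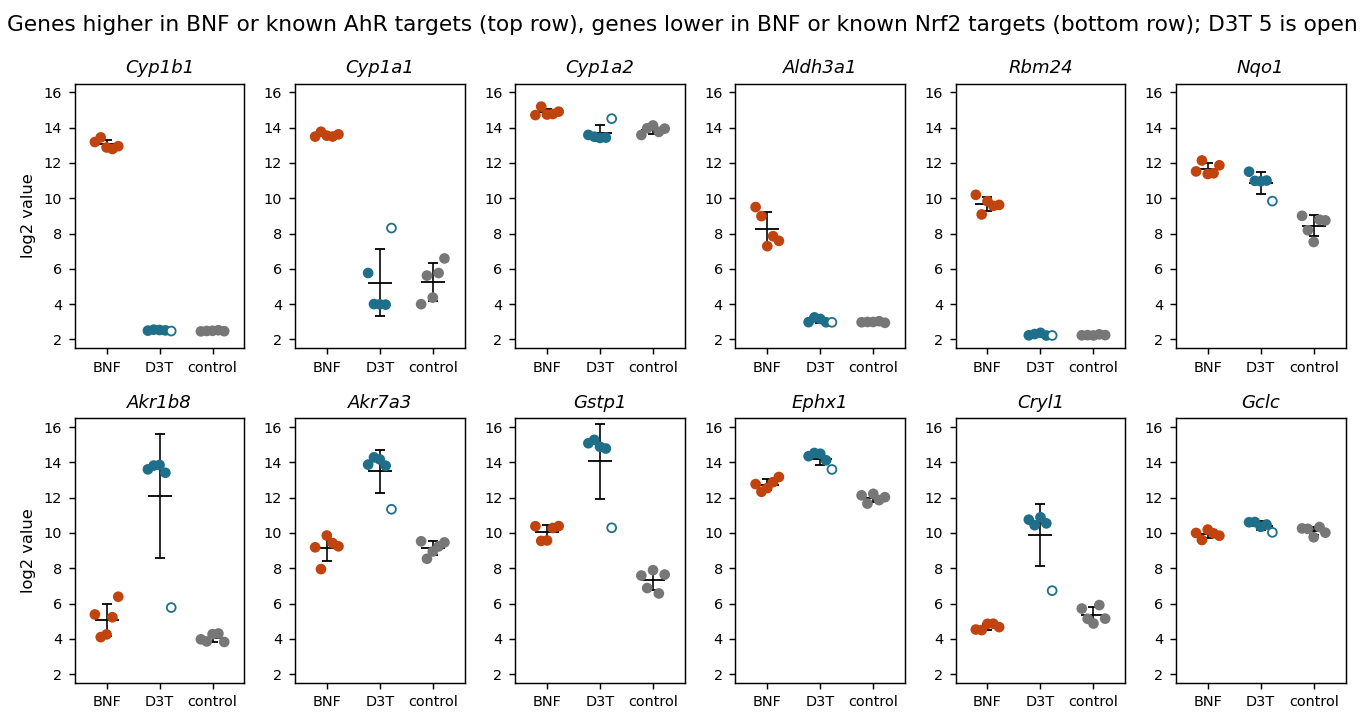
Log2 value of 12 genes in each BNF, D3T and control array (5 dots a group, horizontal bar the mean, error bar 1 SD); the open circle is D3T 5. In the top row Cyp1b1, Aldh3a1 and Rbm24 are at background in every D3T and control array, while Nqo1 is raised over control in both diets; in the bottom row D3T 5 lies apart from the other D3T arrays for Akr1b8, Akr7a3, Gstp1 and Cryl1.

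Several genes with no established place in the AhR battery were as large as its members. Rbm24, an RNA-binding protein known from muscle splicing, had values of 10.19, 9.08, 9.83, 9.57 and 9.62 in BNF and 2.23, 2.30, 2.37, 2.21 and 2.22 in D3T, a difference of 7.39 ± 0.14 (adjusted p = 2.05e-18). All D3T and control arrays were at background (2.24 ± 0.02 in control). Lcn2, the iron-siderophore binder lipocalin 2, had values of 7.72, 9.13, 7.96, 9.07 and 7.08 in BNF and 2.47, 2.49, 2.34, 2.47 and 4.22 in D3T. D3T 5 was the only D3T array above background, and the difference was 5.39 ± 0.37 (adjusted p = 1.25e-08; 5.75 without D3T 5). Vxn, known as vexin from neural development in the frog, averaged 8.11 ± 0.66 in BNF and 3.02 ± 0.12 in D3T (difference 5.09, adjusted p = 4.42e-10). Scn4b, a sodium channel beta subunit, averaged 7.53 ± 0.65 in BNF and 2.48 ± 0.05 in D3T (difference 5.05, adjusted p = 2.43e-12). Mybl1, a MYB-family transcription factor, averaged 8.98 ± 0.56 in BNF and 3.96 ± 0.24 in D3T (difference 5.02, adjusted p = 1.51e-11). None of these groups overlapped, and all of the D3T means are near background. Genes that low in D3T passed the filter mainly through the diets where they are high, so the lack of overlap is partly set by the filter.

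Genes of the Nrf2 battery were mostly lower in BNF than in D3T. Of 31 measured Nrf2 targets, 20 were called lower (23 without D3T 5) and 1 higher (10.8% and 6.78% over all genes). Their median difference was -0.99, against -0.03 over all genes. Against control 21 were called higher in D3T and 1 in BNF, and none lower in either diet. Akr1b8, an aldo-keto reductase that reduces lipid aldehydes, had values of 5.38, 4.09, 4.25, 5.22 and 6.39 in BNF and 13.61, 13.82, 13.86, 13.42 and 5.77 in D3T. The D3T arrays 1 to 4 lay far above BNF, while D3T 5 lay inside the BNF range, so the groups overlapped. The difference was -7.03 ± 1.54 (adjusted p = 0.00443) and -8.61 without D3T 5 (adjusted p = 0.000147). Akr7a3, known as aflatoxin B1 aldehyde reductase, had values of 9.19, 7.95, 9.86, 9.43 and 9.24 in BNF and 13.88, 14.29, 14.17, 13.82 and 11.35 in D3T, with 9.14 ± 0.41 in control. BNF lay at the control level, D3T above it in all 5 arrays, and the difference was -4.37 ± 0.61 (adjusted p = 9.14e-05; -4.91 without D3T 5).

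Gstp1, the pi-class glutathione transferase and a known marker of preneoplastic foci in rat liver, had values of 10.39, 9.55, 9.58, 10.28 and 10.39 in BNF and 15.09, 15.28, 14.89, 14.79 and 10.30 in D3T. Control averaged 7.31 ± 0.56, below every array of both diets, and D3T 5 lay within the BNF range. The difference was -4.03 ± 1.01 (adjusted p = 0.0108) and -4.97 without D3T 5 (adjusted p = 0.000829). Against control it was 6.76 in D3T (adjusted p = 0.000271) and 2.72 in BNF, which was not called (adjusted p = 0.162). Its upstream sequence is shown with that of Dao, a gene lower in BNF by a similar amount, because both hold a match to TGACNNNGC, the core of the antioxidant response element. These are the 250 bases before the start on GRCr8, at chr1:210769706-210769955 (Gstp1) and chr12:48273301-48273550 (Dao), both on the minus strand, 5′ to 3′. Capitals mark TGACNNNGC and, on the reverse strand of Gstp1, GCGTG.
Gstp1: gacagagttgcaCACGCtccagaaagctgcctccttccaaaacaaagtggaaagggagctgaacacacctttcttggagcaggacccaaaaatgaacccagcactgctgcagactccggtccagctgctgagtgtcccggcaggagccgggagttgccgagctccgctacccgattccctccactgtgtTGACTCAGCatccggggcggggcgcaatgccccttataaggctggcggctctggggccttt
Dao: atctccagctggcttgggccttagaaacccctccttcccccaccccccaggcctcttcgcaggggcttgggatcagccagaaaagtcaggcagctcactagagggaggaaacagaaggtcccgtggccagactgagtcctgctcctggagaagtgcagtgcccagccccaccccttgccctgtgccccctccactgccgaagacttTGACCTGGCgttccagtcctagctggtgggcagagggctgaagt
The TGACNNNGC match begins at base -61 in Gstp1 and at base -44 in Dao. The reverse of GCGTG stands in Gstp1 at base -238, and once more at base 31 after the start, beyond the printed stretch. TGACNNNGC, on either strand, was in 12.1% of all promoter windows, in 14.8% of those of tested genes, in 17.5% of those of genes higher in BNF and in 14.1% of those of genes lower in BNF. Among genes called at 2-fold or more the order was the reverse, 17.3% for those higher and 19.7% for those lower.

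Ephx1, the microsomal epoxide hydrolase that hydrates arene epoxides, had values of 12.77, 12.34, 12.55, 12.88 and 13.18 in BNF and 14.36, 14.54, 14.49, 14.12 and 13.60 in D3T. The groups did not overlap, and the difference was -1.48 ± 0.24 (adjusted p = 0.000375; -1.63 without D3T 5). Me1, the cytosolic malic enzyme that makes NADPH, averaged 8.91 ± 0.49 in BNF and 11.18 ± 0.78 in D3T, a difference of -2.27 (adjusted p = 0.000267; -2.61 without D3T 5). Gclc, the catalytic subunit of glutamate-cysteine ligase and the rate-limiting step of glutathione synthesis, averaged 9.92 ± 0.22 in BNF and 10.42 ± 0.24 in D3T. It was not called with all arrays (difference -0.49, adjusted p = 0.0766) and was called without D3T 5 (-0.59, adjusted p = 0.0418). Gclm, the regulatory subunit, showed the same: -1.004 with all arrays (adjusted p = 0.0665) and -1.31 without D3T 5 (adjusted p = 0.0105). Srxn1, the sulfiredoxin that repairs peroxiredoxins, had values of 8.93, 8.28, 8.20, 8.18 and 8.51 in BNF and 8.94, 9.27, 8.79, 8.95 and 6.25 in D3T and was called neither with D3T 5 (difference -0.02) nor without it (-0.57, adjusted p = 0.325). Hmox1, heme oxygenase 1, averaged 8.09 ± 0.36 in BNF and 7.05 ± 0.54 in D3T and was not called (difference 1.04, adjusted p = 0.0817). The only listed target called higher was Abcc2, an exporter of glutathione conjugates into bile, at 0.44 (adjusted p = 0.0361). That call did not survive 7 of the single-array omissions, BNF 1, 3, 4 and 5 and D3T 2, 3 and 4, nor centring on the array median, nor dropping the filter on low values.

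Glutathione transferases were lower in BNF than in D3T as a family: 13 of 18 measured members were called lower and none higher. Their median difference was -0.72. Against control none was called in BNF (median 0.14), while 12 were called higher and none lower in D3T (median 0.82). Gstt1, a theta-class member, averaged 8.07 ± 0.17 in BNF and 9.96 ± 0.34 in D3T (difference -1.89, adjusted p = 0.000539). Gstm4, of the mu class, averaged 8.26 ± 0.32 in BNF and 9.99 ± 0.70 in D3T (difference -1.74, adjusted p = 0.00144; -2.05 without D3T 5). Gstt3 averaged 12.04 ± 0.50 in BNF and 13.62 ± 0.27 in D3T (difference -1.58, adjusted p = 0.000193). Members of a class are close in sequence, and probe sets of the array can cross-hybridize between them, which was not tested. Among 25 enzymes of glutathione and thioredoxin redox balance 10 were lower and 1 higher, and 15 were lower without D3T 5. Txnrd1, a thioredoxin reductase, averaged 9.996 ± 0.15 in BNF and 11.15 ± 0.42 in D3T (difference -1.16, adjusted p = 0.00587), and its other probe set was not called (-0.70, adjusted p = 0.164). The 1 higher member was Glrx, glutaredoxin, which reduces glutathionylated proteins. Its values were 11.19, 11.22, 11.04, 11.07 and 11.12 in BNF and 9.49, 9.60, 9.78, 9.88 and 9.84 in D3T, with no overlap (difference 1.41 ± 0.13, adjusted p = 1.07e-06), and it departed from control in opposite directions, by 0.85 in BNF (adjusted p = 0.000889) and -0.56 in D3T (adjusted p = 0.00911).

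Enzymes that supply NADPH through the pentose phosphate pathway and beside it were lower in BNF than in D3T in 6 of 9 measured genes. None was higher, and 5 were lower without D3T 5. Against control none was called in BNF, while 6 were called higher and none lower in D3T. Tkt, transketolase, averaged 9.75 ± 0.23 in BNF and 11.55 ± 0.41 in D3T (difference -1.80, adjusted p = 0.000191). Pgd, 6-phosphogluconate dehydrogenase, averaged 9.64 ± 0.44 in BNF and 10.95 ± 0.44 in D3T (difference -1.30, adjusted p = 0.00402). Of 17 aldo-keto and carbonyl reductases 7 were lower and 1 higher, and Ptgr1, which reduces leukotriene and prostaglandin enones, averaged 9.08 ± 0.76 in BNF and 10.65 ± 0.44 in D3T (difference -1.56, adjusted p = 0.00294). Of 13 epoxide hydrolases and aldehyde dehydrogenases 7 were lower and 2 higher. Aldh1l1, the cytosolic formyltetrahydrofolate dehydrogenase, averaged 11.15 ± 0.26 in BNF and 13.14 ± 0.43 in D3T (difference -1.99, adjusted p = 4.67e-05). Aldh1a1, which makes retinoic acid from retinal, averaged 10.51 ± 0.63 in BNF and 12.44 ± 0.40 in D3T (difference -1.92, adjusted p = 0.000349). Aldh1b1, a mitochondrial aldehyde dehydrogenase, averaged 3.73 ± 0.63 in BNF, 6.19 ± 0.58 in D3T and 5.60 ± 0.89 in control (difference -2.46, adjusted p = 0.000316), so that here BNF was the diet that departed from control. Among genes of glucuronate, ascorbate and inositol metabolism 6 of 12 were lower and 1 higher. Ugdh, which makes the UDP-glucuronate used in conjugation, averaged 11.32 ± 0.13 in BNF and 12.68 ± 0.42 in D3T (difference -1.36, adjusted p = 0.000467).

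**Figure D3:**
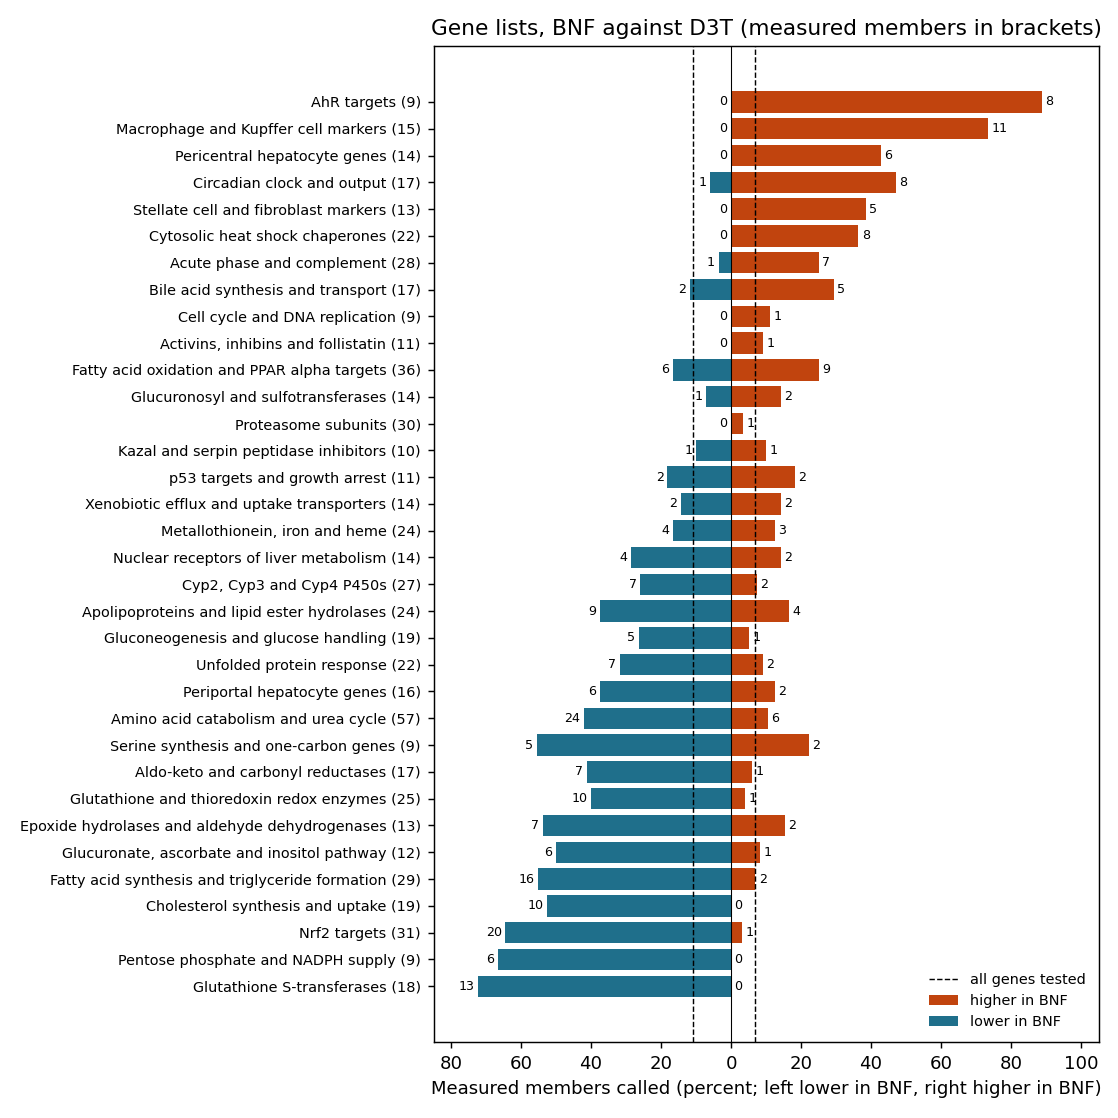
Percent of measured members called higher in BNF (right, orange) and lower in BNF (left, blue) for each gene list with at least 9 measured members, which stand in brackets; numbers at the bars are genes called, and dashed lines mark all genes tested (6.78% higher, 10.8% lower). AhR targets lie at the top with 8 of 9 higher, and glutathione S-transferases at the bottom with 13 of 18 lower.

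The 4 genes that mark this comparison, Cyp1b1, Cryl1, Spink1l and Dao, differ in which diet departs from control. Cyp1b1 moved in BNF alone by the calls against control. Cryl1, crystallin lambda 1, a dehydrogenase of the glucuronate pathway, had values of 4.52, 4.49, 4.85, 4.85 and 4.66 in BNF and 10.76, 10.44, 10.89, 10.54 and 6.73 in D3T, with 5.35 ± 0.44 in control. D3T arrays 1 to 4 lay far above both other groups and D3T 5 lay between, and the difference was -5.20 ± 0.72 (adjusted p = 8.65e-05; -5.98 without D3T 5). Against control Cryl1 was 4.52 in D3T (adjusted p = 0.000484) and -0.68 in BNF (adjusted p = 0.768). Spink1l, a Kazal-type trypsin inhibitor, had values of 4.63, 5.80, 4.46, 4.91 and 5.96 in BNF and 10.97, 9.78, 10.91, 11.84 and 8.41 in D3T, and 10.24 ± 0.80 in control. Here D3T lay at the control level and BNF below it in all arrays, with a difference of -5.23 ± 0.62 (adjusted p = 1.68e-05; -5.73 without D3T 5). Dao, the peroxisomal D-amino acid oxidase, had values of 2.95, 2.88, 6.06, 4.27 and 5.49 in BNF and 9.26, 7.97, 9.90, 10.08 and 7.84 in D3T, and 7.10 ± 0.57 in control. The BNF arrays ranged widely, from background in BNF 1 and BNF 2 upward, but stayed below every D3T array. The difference was -4.68 ± 0.57 (adjusted p = 2.08e-05; -4.97 without D3T 5), made of -2.77 in BNF (adjusted p = 0.00959) and 1.91 in D3T (adjusted p = 0.0367) against control.

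Other genes with a large deficit in BNF fell into the same patterns. Aspg, an asparaginase, resembled Spink1l, with 4.25 ± 1.03 in BNF, 8.81 ± 0.07 in D3T and 8.61 ± 0.46 in control (difference -4.55, adjusted p = 3.99e-08). Psat1, which catalyses a step of serine synthesis, had values of 2.85, 3.198, 2.40, 2.41 and 3.18 in BNF and 6.71, 6.93, 8.26, 7.05 and 4.05 in D3T. BNF and control (2.52 ± 0.28) were at background, so the difference of -3.79 ± 0.66 (adjusted p = 0.000694; -4.43 without D3T 5) rests on D3T. Of 9 measured genes of serine synthesis and one-carbon metabolism, Psat1 among them, 5 were lower and 2 higher. Efna1, the ephrin A1 ligand of Eph receptors, averaged 5.35 ± 0.90 in BNF, 8.35 ± 0.52 in D3T and 5.41 ± 0.50 in control (difference -3.004, adjusted p = 1.70e-05). Tcea3, a transcription elongation factor, averaged 5.78 ± 0.55 in BNF, 8.69 ± 0.46 in D3T and 7.13 ± 0.38 in control, and was called against control in both diets, lower in BNF and higher in D3T (difference -2.91, adjusted p = 1.52e-05).

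Fatty acid synthesis was lower in BNF than in D3T. Of 29 measured genes 16 were called lower (15 without D3T 5) and 2 higher, with a median difference of -0.71. Fasn, fatty acid synthase, had values of 7.81, 9.32, 8.42, 9.41 and 8.99 in BNF and 12.60, 12.60, 11.58, 12.28 and 11.28 in D3T, with 10.20 ± 0.35 in control. Every BNF array lay below, and every D3T array above, every control array, and the difference was -3.28 ± 0.35 (adjusted p = 6.16e-06; -3.47 without D3T 5). Scd, the stearoyl-CoA desaturase that makes monounsaturated fatty acids, had values of 9.68, 8.80, 8.16, 9.93 and 10.07 in BNF and 13.52, 13.36, 12.85, 13.55 and 11.22 in D3T. The difference was -3.57 ± 0.57 (adjusted p = 0.000351; -3.99 without D3T 5), and D3T 5 was the lowest D3T array. Acaca, acetyl-CoA carboxylase, averaged 8.17 ± 0.25 in BNF and 10.61 ± 0.39 in D3T (difference -2.44, adjusted p = 1.71e-06). Acly, ATP citrate lyase, averaged 10.55 ± 0.34 in BNF and 12.68 ± 0.49 in D3T (difference -2.13, adjusted p = 1.55e-05). Srebf1, the transcription factor known to drive these genes, averaged 9.30 ± 0.43 in BNF, 11.11 ± 0.39 in D3T and 10.002 ± 0.08 in control (difference -1.81, adjusted p = 3.63e-06), and was called against control in both diets, by -0.70 in BNF and 1.11 in D3T.

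Pnpla3, the lipid droplet protein, was uneven, with values of 3.43, 3.44, 3.47, 3.46 and 3.33 in BNF and 8.66, 9.34, 4.08, 5.63 and 3.52 in D3T. Only D3T 1 and D3T 2 were well above background, and the call (difference -2.82, adjusted p = 0.0238) was lost without either of them, with no filter and where only the BNF and D3T arrays were fitted, and its adjusted p reached at most 0.101 over all settings. The 2 genes of the list called higher were Elovl2, an elongase of polyunsaturated fatty acids (difference 1.20, adjusted p = 0.0345), and Nr1h3, the oxysterol receptor LXR alpha (difference 0.72, adjusted p = 0.00345). Both averaged below control in D3T, Elovl2 by -1.34 (adjusted p = 0.0238) and Nr1h3 by -0.42 (adjusted p = 0.0828).

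Genes of fatty acid oxidation and PPAR alpha response were called in both directions, 9 higher in BNF and 6 lower of 36 measured (6.78% and 10.8% over all genes). With the interquartile range as a covariate 14 were higher, while the count higher over all genes rose from 531 to 1260. Against control 9 of the 36 were called lower and none higher in BNF (median -0.41). In D3T 18 were called lower and 2 higher against control (median -0.38). Cpt1a, which admits fatty acids to the mitochondrion, had values of 12.28, 11.57, 12.45, 11.79 and 12.31 in BNF and 8.95, 8.62, 9.11, 10.42 and 10.20 in D3T, with 12.11 ± 0.15 in control. BNF lay at the control level and every D3T array below it, for a difference of 2.62 ± 0.28 (adjusted p = 5.45e-06; 2.80 without D3T 5). Vnn1, a pantetheinase and known PPAR alpha target, had values of 8.68, 6.68, 8.58, 8.28 and 8.84 in BNF and 4.57, 4.66, 4.79, 4.69 and 4.58 in D3T, with 8.88 ± 0.15 in control. The D3T arrays were closely alike and low, BNF 2 was the lowest BNF array, and the difference was 3.55 ± 0.35 (adjusted p = 2.32e-06). Ech1, an auxiliary enzyme of unsaturated fatty acid oxidation, averaged 11.77 ± 0.31 in BNF and 9.84 ± 0.39 in D3T (difference 1.93, adjusted p = 5.84e-06). Phyh, phytanoyl-CoA hydroxylase of the peroxisome, was among the most abundant called transcripts, at 14.58 ± 0.26 in BNF and 12.77 ± 0.18 in D3T (difference 1.81, adjusted p = 6.56e-08).

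Other genes known as PPAR alpha targets ran the opposite way. Angptl4, an inhibitor of lipoprotein lipase, had values of 6.49, 6.39, 7.64, 7.41 and 7.02 in BNF and 10.25, 10.24, 10.83, 9.78 and 8.89 in D3T, with a difference of -3.01 ± 0.37 (adjusted p = 2.02e-05; -3.28 without D3T 5). Pdk4, the kinase that shuts off pyruvate dehydrogenase, averaged 8.78 ± 0.70 in BNF and 10.84 ± 0.28 in D3T (difference -2.06, adjusted p = 0.000407), and BNF 5 stood above the other BNF arrays. Its second, dimmer probe set was not called (-1.07, adjusted p = 0.169). Both were higher than control in D3T, Angptl4 by 2.09 (adjusted p = 0.00114) and Pdk4 by 1.26 (adjusted p = 0.0196), while their BNF means missed the threshold against control.

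Cholesterol synthesis was lower in BNF in 10 of 19 measured genes (8 without D3T 5, and 4 where only the BNF and D3T arrays were fitted without it) and higher in none. Dhcr7, the last enzyme of the pathway, averaged 9.44 ± 0.64 in BNF and 11.37 ± 0.21 in D3T (difference -1.93, adjusted p = 3.52e-05). Fdft1, squalene synthase, averaged 10.06 ± 0.63 in BNF and 11.21 ± 0.20 in D3T (difference -1.15, adjusted p = 0.00263). Sqle, squalene epoxidase, was not called (difference 0.32, 95% interval -0.27 to 0.91). Bile acid genes were called 5 higher and 2 lower of 17 (6.78% and 10.8% over all genes). Abcg5, a subunit of the sterol exporter into bile, had values of 7.77, 7.83, 7.34, 7.37 and 7.47 in BNF and 1.91, 1.87, 3.05, 3.54 and 3.93 in D3T. It was called in opposite directions against control (5.35 ± 0.58), and the difference was 4.70 ± 0.60 (adjusted p = 3.42e-05). Cyp8b1, the sterol hydroxylase that sets the cholic acid share, averaged 13.45 ± 0.06 in BNF and 11.30 ± 0.49 in D3T (difference 2.15, adjusted p = 3.96e-06). Nr0b2, the corepressor SHP known to repress bile acid synthesis, averaged 6.81 ± 0.32 in BNF and 9.21 ± 1.13 in D3T (difference -2.40, adjusted p = 0.00107). Cyp7a1, the rate-limiting enzyme of the classical pathway, had values of 11.39, 12.17, 12.52, 11.77 and 10.66 in BNF and 10.22, 10.57, 11.96, 10.19 and 12.49 in D3T. Its groups overlapped and it was not called (difference 0.61, 95% interval -0.50 to 1.73, adjusted p = 0.482).

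**Figure D4:**
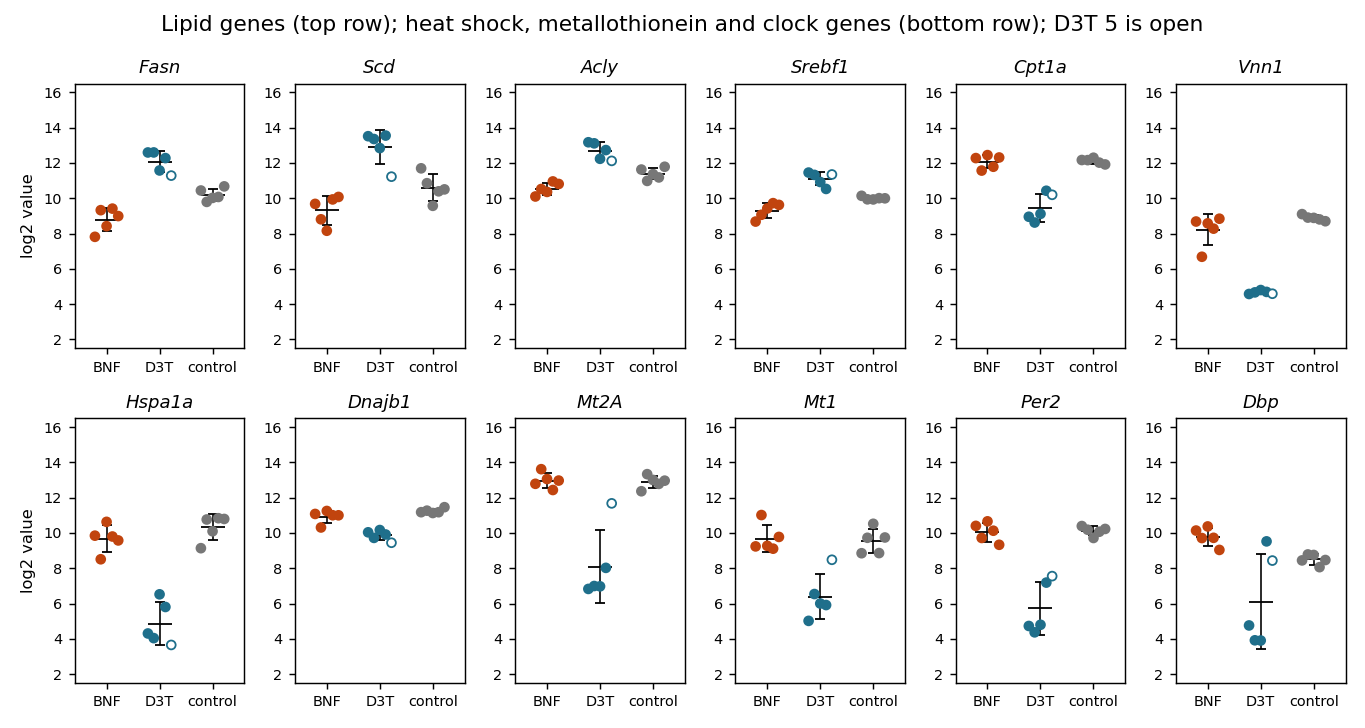
Log2 value of 12 genes in each BNF, D3T and control array (5 dots a group, horizontal bar the mean, error bar 1 SD); the open circle is D3T 5. Fasn, Scd, Acly and Srebf1 are lower in BNF than in D3T with the control mean between them, while Cpt1a, Vnn1, Hspa1a, Mt2A, Mt1 and Per2 are near control in BNF and lower in D3T.

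Amino acid catabolism and the urea cycle had 24 of 57 measured genes lower in BNF and 6 higher (8 without D3T 5). Over all genes 10.8% were lower and 6.78% higher. Besides Dao and Aspg, Csad, which makes hypotaurine for taurine synthesis, averaged 7.89 ± 0.88 in BNF and 10.24 ± 0.90 in D3T (difference -2.36, adjusted p = 0.00502). Uroc1, urocanase of histidine breakdown, averaged 10.82 ± 0.34 in BNF and 12.49 ± 0.13 in D3T (difference -1.67, adjusted p = 3.59e-06), and departed from control in opposite directions in the 2 diets. Among the genes higher in BNF were Got1, the cytosolic aspartate aminotransferase (difference 1.32, adjusted p = 0.00894), and Tat, tyrosine aminotransferase, a glucocorticoid-responsive gene. Tat averaged 12.99 ± 0.18 in BNF, 11.78 ± 0.41 in D3T and 12.84 ± 0.17 in control (difference 1.21, adjusted p = 4.97e-05). In the 19 genes of gluconeogenesis and glucose handling 5 were lower and 1 higher. The higher one was Gys2, liver glycogen synthase, at 11.40 ± 0.57 in BNF and 9.14 ± 0.50 in D3T (difference 2.25, adjusted p = 1.70e-05). Igfbp1, an insulin-repressed binder of insulin-like growth factors, averaged 7.93 ± 0.81 in BNF and 10.18 ± 0.99 in D3T (difference -2.25, adjusted p = 0.00573).

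Cytosolic heat shock chaperones were higher in BNF in 8 of 22 measured genes and lower in none (6.78% of all genes were higher). This count was 13 with array weights, a further quantile normalization or the interquartile range as a covariate. Over all genes the count higher in BNF also rose there, from 531 to 948, 728 and 1260. Hspa1a, the inducible Hsp70, had values of 9.85, 8.51, 10.63, 9.80 and 9.58 in BNF and 4.30, 4.04, 6.52, 5.80 and 3.65 in D3T, with 10.33 ± 0.73 in control. BNF overlapped control and every D3T array lay far below both, and the difference was 4.81 ± 0.56 (adjusted p = 1.51e-05; 4.51 without D3T 5). Its change against control was -5.46 in D3T (adjusted p = 1.01e-05) and -0.65 in BNF (adjusted p = 0.678). Dnajb4 and Dnajb1, cochaperones of Hsp70, differed by 1.90 (adjusted p = 6.72e-05) and 1.07 (adjusted p = 0.000127). Hsph1, a nucleotide exchange factor of Hsp70, differed by 0.82 (adjusted p = 0.000633). The unfolded protein response of the endoplasmic reticulum ran the other way, with 7 of 22 lower and 2 higher (10.8% and 6.78% over all genes). With array weights 11 were lower, while the count lower over all genes rose from 845 to 1245. Sdf2l1 averaged 10.59 ± 0.67 in BNF and 12.03 ± 0.51 in D3T (difference -1.44, adjusted p = 0.00975), and Hyou1, an endoplasmic reticulum Hsp70 relative, averaged 11.13 ± 0.33 in BNF and 12.24 ± 0.44 in D3T (difference -1.11, adjusted p = 0.00282; -0.73 on its other probe set, adjusted p = 0.301).

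The metallothioneins, small metal-binding proteins, were higher in BNF. Mt2A had values of 12.79, 13.62, 13.06, 12.44 and 12.97 in BNF and 6.83, 6.99, 6.97, 8.02 and 11.68 in D3T, with 12.89 ± 0.35 in control. D3T 5 lay nearer to the BNF arrays than to the other D3T arrays, and the difference was 4.88 ± 0.74 (adjusted p = 0.000196; 5.77 without D3T 5). Mt1 had values of 9.24, 11.02, 9.27, 9.11 and 9.78 in BNF and 5.02, 6.54, 6.00, 5.91 and 8.48 in D3T, with the same array highest in D3T. Its difference was 3.29 ± 0.55 (adjusted p = 0.000539; 3.82 without D3T 5). The wider list of metallothionein, iron and heme genes had 3 of 24 members higher and 4 lower (6.78% and 10.8% over all genes).

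Clock and clock output genes were higher in BNF in 8 of 17 measured genes and lower in 1 (6.78% and 10.8% over all genes). Per2, a repressor arm of the clock, had values of 10.40, 9.72, 10.66, 10.13 and 9.33 in BNF and 4.73, 4.37, 4.79, 7.19 and 7.55 in D3T, with 10.12 ± 0.25 in control. D3T 4 and D3T 5 were the highest D3T arrays, and the difference was 4.32 ± 0.51 (adjusted p = 1.68e-05; 4.78 without D3T 5). Dbp, a clock-driven transcription factor, had values of 10.14, 9.71, 10.37, 9.73 and 9.04 in BNF and 4.76, 3.91, 3.90, 9.52 and 8.44 in D3T. D3T 4 lay inside the BNF range, the groups overlapped, and the call (difference 3.69, adjusted p = 0.0152) was lost without D3T 3, where its adjusted p reached 0.0524. Usp2 and Noct, both known clock outputs, differed by 3.14 (adjusted p = 0.00605) and 3.22 (adjusted p = 0.00199). In Usp2 the D3T values were 5.32, 4.37, 6.39, 9.17 and 9.18, again with D3T 4 and D3T 5 highest. Noct averaged 7.96 ± 1.11 in BNF, 4.74 ± 1.69 in D3T and 10.11 ± 0.17 in control, and its BNF mean missed the threshold against control. Nr1d1, the clock repressor Rev-erb alpha, did not share this pattern: it averaged 7.57 ± 0.50 in BNF and 7.41 ± 0.72 in D3T (difference 0.16, adjusted p = 0.755). The hour of tissue collection is not given in the sources used here, and its part in these results was not tested. The count of 8 higher clock genes became 5 without BNF 4 and 4 without D3T 3. Over all genes the count higher fell from 531 to 435 and 357.

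Among 27 Cyp2, Cyp3 and Cyp4 P450 genes with Por, 7 were lower in BNF and 2 higher (10.8% and 6.78% over all genes). Cyp2c22 averaged 10.33 ± 0.40 in BNF and 13.22 ± 0.35 in D3T (difference -2.89, adjusted p = 3.62e-08), and control lay between at 12.05 ± 0.42. Por, the reductase that passes electrons to all microsomal P450s, averaged 11.99 ± 0.44 in BNF and 10.48 ± 0.33 in D3T (difference 1.51, adjusted p = 0.000123), with D3T below control by -1.88. Cyp2c12, a P450 known to be female-specific in rat liver, was at 14.48 ± 0.10 in BNF and 14.75 ± 0.15 in D3T and was not called (adjusted p = 0.0728). Cyp2e1, the ethanol-inducible P450, was not called (difference -0.04, 95% interval -0.20 to 0.12). Sult1c3, a cytosolic sulfotransferase, had values of 9.21, 9.86, 7.78, 9.35 and 9.47 in BNF and 3.501, 3.57, 4.36, 4.63 and 6.86 in D3T, for a difference of 4.55 ± 0.70 (adjusted p = 0.000221), and 5.12 without D3T 5. Only 2 of the 14 glucuronosyl and sulfotransferases were higher and 1 lower. Apoa1, the main protein of high-density lipoprotein, averaged 14.68 ± 0.16 in BNF and 13.45 ± 0.28 in D3T (difference 1.23, adjusted p = 8.70e-05). Nceh1, a neutral cholesterol ester hydrolase, averaged 7.66 ± 1.39 in BNF, 4.67 ± 1.12 in D3T and 9.25 ± 0.34 in control (difference 2.99, adjusted p = 0.00144). Gadd45a, a growth arrest gene, averaged 9.18 ± 0.27 in BNF and 6.91 ± 0.28 in D3T (difference 2.27, adjusted p = 3.28e-06), with control between at 8.17 ± 0.33. Of the 11 p53 and growth arrest genes 2 were higher and 2 lower.

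Pericentral hepatocyte genes, expressed around the central vein, were higher in BNF than in D3T in 6 of 14. None was lower with all arrays, and 1 was lower without D3T 5. Against control 1 was called higher and none lower in BNF (median -0.28). In D3T 5 were called lower and none higher against control (median -0.58). Glul, glutamine synthetase of the innermost pericentral layer, averaged 12.12 ± 0.14 in BNF and 11.35 ± 0.29 in D3T (difference 0.77, adjusted p = 0.0153). Its control mean, 12.42, lay above both. Cyp1a2, described above, is also in this list. Periportal genes were lower in 6 of 16 and higher in 2, a share of called genes above that over all genes in both directions. Against control 6 were called lower and 1 higher in BNF, and 1 lower and 3 higher in D3T.

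Markers of other cell types were called to unequal extents. Of 15 macrophage and Kupffer cell markers 11 were called higher in BNF than in D3T and none lower. Their mean log2 level per array ran between 7.90 and 8.97 in BNF, 6.70 and 7.85 in D3T and 7.21 and 7.93 in control, so the highest D3T array lay just below the lowest BNF array. Against control only 2 of the 15 were called, both higher, in BNF (median 0.93), and none in D3T (median -0.25). Csf1r, the macrophage growth factor receptor, had values of 8.53, 9.04, 8.31, 8.44 and 8.47 in BNF and 8.11, 6.50, 7.14, 7.44 and 7.65 in D3T (difference 1.19 ± 0.31, adjusted p = 0.0126). Cd163, the hemoglobin scavenger receptor, averaged 7.64 ± 0.66 in BNF and 6.23 ± 0.59 in D3T (difference 1.42, adjusted p = 0.0149). Cybb, the catalytic subunit of the phagocyte NADPH oxidase, averaged 5.24 ± 0.59 in BNF and 2.92 ± 0.35 in D3T, where D3T 1 stood above the rest of a near-background group (difference 2.32, adjusted p = 0.00687). Clec4f, a lectin of rodent Kupffer cells, was not called (difference 0.60, 95% interval 0.02 to 1.19, adjusted p = 0.165). Il1r1, the interleukin 1 receptor of the acute phase list, averaged 11.35 ± 0.44 in BNF and 8.34 ± 1.24 in D3T (difference 3.01, adjusted p = 0.000109). The acute phase and complement list had 7 of 28 higher and 1 lower (6.78% and 10.8% over all genes). It had 4 higher without D3T 3 or where only the BNF and D3T arrays were fitted. Over all genes 357 and 489 were then higher, against 531.

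The MHC class II genes need care. Cd74, the invariant chain, had values of 12.06, 12.28, 11.48, 11.74 and 11.78 in BNF and 9.89, 9.09, 10.04, 10.09 and 10.98 in D3T (difference 1.85 ± 0.31, adjusted p = 0.000509), and RT1-Da averaged 11.21 ± 0.22 in BNF and 9.13 ± 0.79 in D3T (difference 2.08, adjusted p = 0.000636). RT1-Ba had values of 9.55, 9.997, 8.97, 10.45 and 10.64 in BNF and 3.51, 3.27, 7.84, 4.02 and 3.49 in D3T on the probe set that represents it (difference 5.50, adjusted p = 0.000615). On its other kept probe set the values were 9.91, 10.20, 9.39, 3.02 and 3.23 in BNF and 8.31, 7.65, 3.03, 8.21 and 10.18 in D3T, with no call (difference -0.33, adjusted p = 0.932). On that probe set BNF 4, BNF 5 and D3T 3 were near background and the other arrays of both diets were not. The probe sets of RT1-Bb were also unlike each other, at 5.53 on one probe set (adjusted p = 0.00473) and 0.09 on the other (adjusted p = 0.702). No difference between diets is therefore drawn from RT1-Ba or RT1-Bb.

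Stellate cell and fibroblast markers were higher in BNF in 5 of 13 and lower in none. Without D3T 1 8 were higher, while the count higher over all genes rose from 531 to 621. Dcn, the proteoglycan decorin, averaged 5.95 ± 0.99 in BNF and 3.64 ± 0.26 in D3T (difference 2.31, adjusted p = 0.00258), and Col1a1, the main fibrillar collagen, 8.12 ± 0.78 in BNF and 6.42 ± 0.41 in D3T (difference 1.70, adjusted p = 0.00542). Acta2, smooth muscle actin, averaged 8.21 ± 0.29 in BNF, 7.14 ± 0.32 in D3T and 8.02 ± 0.35 in control (difference 1.08, adjusted p = 0.000686). None of the 8 endothelial markers was called, and their levels ran from 6.88 to 7.83 in BNF and from 6.13 to 8.32 in D3T, with D3T 1 the highest of all. Apart from RT1-Ba, the lymphocyte list had 3 of 4 measured members higher, namely Cd74 and RT1-Da, which macrophages express too, and Ptprc, the pan-leukocyte antigen CD45 (difference 1.57, adjusted p = 0.00733), while Cd3e of T cells was not called. The 1 measured neutrophil marker was not called either. Blood and pancreas lists went the other way: 1 of 2 erythrocyte markers was lower in BNF (median difference -0.96), as was 1 of 3 pancreas markers. Both erythrocyte markers were called higher in D3T against control. Of 2 cholangiocyte markers 1 was higher in BNF. In these 3 lists no member was called between the diets without D3T 5. Hepatocyte markers were called higher in 2 of 7, Apoa1 and Tat, with list levels of 14.30 to 14.42 in BNF and 13.91 to 14.28 in D3T, so here too every BNF array lay above every D3T array, by a small margin. The median difference of the 7 hepatocyte genes was -0.05. Whether the marker levels of other cell types have a part in the hepatocyte results was not tested.

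**Figure D5:**
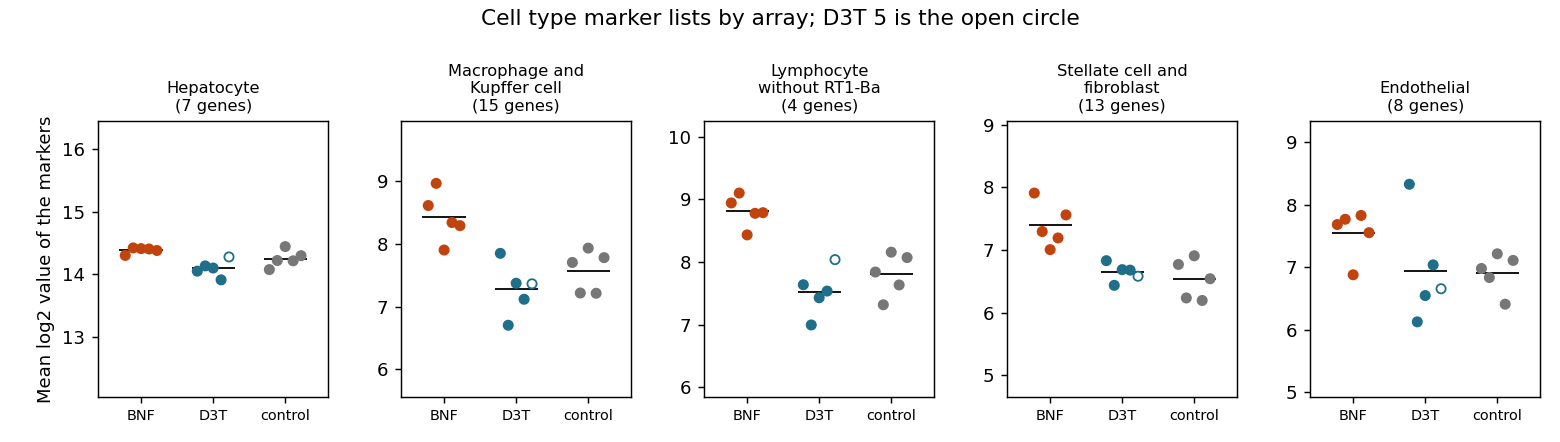
Mean log2 value of the measured markers of 5 cell types in each array of BNF, D3T and control (horizontal bar, the group mean); the open circle is D3T 5 and each panel has its own vertical axis. The lymphocyte panel leaves out RT1-Ba and holds 3 genes called higher, 2 of which macrophages express too. Hepatocyte, macrophage, lymphocyte and stellate levels of the BNF arrays all lie above those of the D3T arrays, by the smallest margin of means in hepatocytes, and the endothelial groups overlap.

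Other lists had few calls or calls in both directions, beside 6.78% higher and 10.8% lower over all genes. Of 30 proteasome subunits 1 was called higher and none lower, with a median difference of 0.01. Of 9 measured cell cycle genes 1 was higher, and it was Mybl1. Of 11 genes listed with the activins, inhibins and follistatin 1 was higher and none lower. It was Igfbp2, a binder of insulin-like growth factors, so no activin, inhibin or follistatin gene of the list was called. Igfbp2 averaged 9.20 ± 0.70 in BNF and 6.54 ± 1.19 in D3T (difference 2.66, adjusted p = 0.00153). Of 14 transporters of xenobiotics 2 were higher and 2 lower, and of 14 nuclear receptors 2 were higher and 4 lower (2 lower without BNF 1, BNF 2, D3T 2 or D3T 3). Of 24 apolipoproteins and lipid ester hydrolases 4 were higher and 9 lower. Of 10 Kazal and serpin inhibitors 1 was higher and 1 lower, Spink1l.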

How the data were processed

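The deposited table holds log2 values of 31042 probe sets on 20 arrays. The authors made them with GCRMA (background correction, normalization and probe summary), per the submitters' processing notes; its version, scan dates and detection calls are not given in the sources used here. Values were used as deposited. The filter kept 12947 probe sets (threshold log2 4, exceeded in 5 or more arrays). Names came from the platform annotation, updated by gene identifier with the RefSeq table (20758 of 20826 single-gene probe sets). The brightest kept probe set on average stood for each of 7837 genes, 1699 of which had several.

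One limma 3.58.1 fit in R 4.3.3 (lmFit, eBayes with trend, two-sided), with 4 diet means estimated together over the 20 arrays, gave every test, adjusted by Benjamini-Hochberg over kept probe sets. Intervals are 95%, and the number of arrays limits the precision. The labels give 1 array a rat, and the p-values measure the spread between these samples, pooled over the diets. For genes at background in D3T and control, such as Cyp1b1, Aldh3a1 and Rbm24, that pooled spread is smaller than the spread within BNF. The method was tested on simulated data.

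The comparison, the gene lists and the genes to name were chosen with earlier results of these data known. Named were 15 anchors; the 12 largest differences each way among genes called with and without D3T 5 and free of overlap; as many as 4 called members of a list, and 2 not called where a role asked; and the 3 most abundant 2-fold genes each way. Acly, Ahr, Alb, Clec4f, Csf1r, Cyp2c12, Cyp2e1, Ech1, Elovl2, Exoc3, Gclm, Glul, Got1, Hmox1, Hsph1, Lcat, Nr1d1, Sqle, Srebf1 and Srxn1 lie outside that rule or were taken for their role, after their values were seen. Promoter windows are RefSeq's, on GRCr8. Alternatives were centring on the array median, a further quantile step, dropping the filter or raising it to log2 6, no trend, a robust prior, array weights, the 2 diets alone, a replicate block, averaging probe sets within a gene, and omitting arrays. The interquartile range of each array as a covariate and the 2 diets alone without D3T 5 were added after seeing the data.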

Additional observations from a re-analysis of the deposited data

Results flagged for a closer look

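In 216 groups of 5 arrays, 1 for each of 108 genes in each diet, 23 had an array whose gap to its nearest neighbour was above the 95% critical value of Dixon's test (0.71 of the group's range). In independent groups of normal values chance flags about 1 in 20. The genes here share arrays and some were taken after their values were seen, so that rate is no baseline for the 23. The array D3T 5 accounted for 14 of the 23, and every value below is a log2 value of 1 array, mostly with its nearest neighbour in the same diet beside it.

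D3T 5 was the lowest D3T array for Akr1b8 (5.77, next 13.42), Gstp1 (10.30, next 14.79), Cryl1 (6.73, next 10.44), Akr7a3 (11.35, next 13.82), Srxn1 (6.25, next 8.79), Gstm4 (8.75, next 10.22), Me1 (9.84, next 11.30) and Sdf2l1 (11.13, next 12.12). It was the highest D3T array for Mt2A (11.68, next 8.02), Lcn2 (4.22, next 2.49), Cyp1a2 (14.51, next 13.59), Hsph1 (10.37, next 9.79), Phyh (13.09, next 12.74) and Cyp2e1 (15.19, next 14.99).

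Of the other D3T arrays, D3T 3 was the highest for RT1-Ba (7.84, next 4.02) and D3T 1 for Cybb (3.54, next 2.78). Among the BNF arrays, BNF 2 was the lowest for Vnn1 (6.68, next 8.28), Elovl2 (9.89, next 10.97), Dnajb1 (10.31) and Abcc2 (11.64, next 12.09). BNF 3 was the lowest for Cyp2c22 (9.65, next 10.35). BNF 5 was the lowest for Pnpla3 (3.33, next 3.43), where the whole BNF group is at background, and the highest for Pdk4 (9.99, next 8.66).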

How the results depend on the processing

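Of 132 named genes called between BNF and D3T, 102 kept their call under every alternative named in the methods except those added later, and 5 more kept it wherever they were measured but were removed by the stricter filter, as were 4 others. Keap1, which represses Nrf2, was the only one whose direction turned: it was -0.49 on its representing probe set and 0.14 on the mean of its probe sets (adjusted p = 0.761). With array weights 3337 probe sets were called (1551 higher in BNF, 1786 lower) and 2193 genes (948 higher), with 1012 genes in BNF and 1877 in D3T against control. With the interquartile range as a covariate 3556 probe sets were called (1898 higher, 1658 lower) and 2279 genes (1260 higher), against 808 higher and 1127 lower probe sets in the reported result. With no filter 207 genes were called in BNF and 654 in D3T against control. Leaving out 1 array at a time gave 1344 to 2180 probe sets (533 to 1069 higher, 811 to 1135 lower, 567 to 847 at least 2-fold) and 973 to 1459 genes (357 to 621 higher, 616 to 854 lower, 378 to 505 at least 2-fold). The lowest counts between BNF and D3T came without D3T 3 (1344 probe sets, 533 of them higher). Against control the range was 198 to 350 genes in BNF, with 198 without BNF 1, and 682 to 1048 in D3T. The cause was not tested for any of these. The labels do not say whether replicate numbers pair the arrays. With the replicate block 1952 probe sets were called (847 higher, 1105 lower). Of 5 BNF arrays 1 correlated best with the D3T array of its own number, and so few arrays cannot decide whether the numbers pair them. The remaining counts over all features were within 1.5 times the reported ones. The calls of Tiparp, Dbp, Pnpla3, Abcc2, Col1a2, Mvk, Lss and C1qb were among the 25 lost under at least 1 setting. Differences that start or end under a log2 value of 4, which include 49 called genes with such a D3T mean and 17 with such a BNF mean, depend on the background correction.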

Other observations

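In the 469 genes called with a difference of 2-fold or more without D3T 5, that array lay at a median of 0.687 of the way from the BNF mean (0) to the D3T mean without it (1). The median was 0.741 for the 251 genes higher in BNF and 0.606 for the 218 genes lower in BNF. Its value was within the range of the OLT arrays in 388 of the 469 genes and within the range of control in 164.

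The probe set that represents RT1-Bb, a chain of an MHC class II molecule, had values of 9.99, 9.94, 9.33, 10.74 and 10.71 in BNF and 2.29, 2.57, 8.64, 6.20 and 3.36 in D3T, with 9.50 in control 1 and 2.25 in control 5. D3T 3, the highest D3T array there, was also the highest D3T array for RT1-Ba at 7.84.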
